A study of Mus musculus with 42 samples.

Results

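Conventional NK (cNK) cells of the mouse uterus were described from 1 pooled set of single cells. They were chosen by raw transcript counts, as unique molecular identifiers (UMIs, tags that count each captured molecule once). A cell was taken as cNK where its mitochondrial share was under 10%, S1pr5, Itga2 and Serpinb9b summed to at least 2 UMIs, and Ncr1, Klrb1c and Eomes summed to at least 1. It also had no UMI of Itga1 or Cd3e and at most 2 UMIs of C1qa, C1qb and C1qc together. This rule found 505 of the 13084 cells under the mitochondrial limit, or 3.86% (exact binomial interval 3.54 to 4.2), out of 15175 cells in all.

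NK cells are innate lymphocytes that kill target cells with perforin and granzymes and secrete cytokines and chemokines without prior priming. The uterus holds tissue-resident NK (trNK) cells, which carry the integrin CD49a (Itga1) and proliferate when the lining of the uterus turns into decidua in pregnancy, together with ILC1 and with cNK cells. Conventional NK cells circulate between bone marrow, blood and spleen, carry CD49b (Itga2) and, as they mature, the sphingosine-1-phosphate receptor S1pr5, which lets them leave tissues for the blood.

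The cells came from wild-type C57BL/6 females without treatment, either virgin or at gestational day 8.5 (gd8.5), and were sorted from pooled uteri as live CD45+NK1.1+NKp46+ cells. The cells of both stages received sample tags, were mixed and were captured on the BD Rhapsody system. The files labelled virgin and gd8.5 both listed all 15175 cells, in identical order, with no gene in common (6821 genes in one and 28416 in the other), so they were joined into 1 table of 35237 genes and 83499186 UMIs. No tag that assigns a cell to a stage was used here, so virgin and gd8.5 cells cannot be told apart, and all values describe 1 mixed sample. The share of each stage in a gated population was not known. Differences between populations therefore cannot be told apart from differences of stage.

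Within one sample there is no replicate and no test. Levels are given as CPM, the UMIs of a gene summed over the cells of a population and scaled to the same total of UMIs in each population, and ratios as ratios of CPM. All intervals are exact 95% intervals and cover counting error only. A gene was called higher or lower at a ratio of at least 2-fold, among genes whose mean over both populations was at least 20 CPM. The genes of the gate were left out of these counts, since the rule fixed them.

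The cNK cells held 1408897 UMIs, with a median of 2035 per cell (range 795 to 20767) and a median of 1138 genes. The nearest population, 3803 trNK cells with Itga1 and Eomes and none of the 3 cNK genes, was deeper, at a median of 9044 UMIs. Smaller populations were gated for comparison, namely 52 ILC1-like cells (median 2411 UMIs), 191 T cells (2033) and 245 B cells (1780). The B cells, which should lack NK genes, give the level of these genes in cells of similar depth outside the NK lineage. Because cNK and trNK differed in depth, the gene and list comparisons between them were also made in cells of 200 to 2500 UMIs. The readings of the gate genes and of the gate edge were made over all depths only. The comparison at like depth held 349 cNK cells (median 1757) and 224 trNK cells (median 1855.5). These trNK cells of like depth were 5.89% of the trNK cells.

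Detection of the gate genes is a description, since a limit of at least 2 UMIs on the sum of 3 genes itself favours cells that hold more than 1 of them. S1pr5 was detected in 302 members (59.8%), Itga2 in 317 (62.8%) and Serpinb9b, a granzyme-inhibiting serpin, in 220 (43.6%). At least 2 of the 3 were detected in 283 members (56.0%), and all of them in 51. The NK receptors Ncr1 (NKp46) and Klrb1c (NK1.1), whose proteins the sort used, were detected in 424 (84.0%) and 420 (83.2%), and the transcription factor Eomes in 269 (53.3%).

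Each cNK gene was then read in cells gated on the other two. S1pr5 reached 225 CPM (197 to 256) in the 345 cells chosen by Itga2 and Serpinb9b alone, and 142 of them (41.2%) held an S1pr5 UMI. It was at 1.30 CPM in trNK cells and 4.02 CPM in B cells. Itga2 reached 236 CPM (204 to 271) in the 315 cells chosen by S1pr5 and Serpinb9b, against 11.1 CPM in trNK cells. Serpinb9b reached 241 CPM (212 to 273) in the 376 cells chosen by S1pr5 and Itga2, against 6.29 CPM in trNK cells. The trNK cells of each of these comparisons were gated without the gene in question too, and the ratios of cNK to trNK cells were 173 for S1pr5 (128 to 239), 21.3 for Itga2 (18 to 25.2) and 38.3 for Serpinb9b (32 to 45.8). These ratios are over all depths, for S1pr5 at medians of 2108 UMIs in cNK and 9059.5 UMIs in trNK cells. The cNK cells read here all passed the full gate too, and the trNK cells held no UMI of the genes that chose them. High ratios follow in part from these choices, so they are a description and not a test of the gate.

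At the edge of the gate, Ccl5 was higher and Gzmd lower inside than in cells with no UMI of the 3 cNK genes. Ccl5, a chemokine of mature NK and memory T cells, was at 968 CPM in the 3431 cells with a sum of 0 that passed every other limit. It was at 4897 CPM in the 479 cells with a sum of 1, just outside the gate, at 9594 CPM in the 212 cells with a sum of 2, and at 11868 CPM in the 293 cells with 3 or more. Gzmd, a granzyme of activated uterine NK cells, was at 5372, 2867, 1351 and 1826 CPM in the same order. The cells with 1 UMI lay between the groups on both sides for both genes. Median depth was 3749 UMIs in the cells with a sum of 0, and 2068, 2017.5 and 2035 UMIs in the others in the same order.

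Against trNK cells, 6178 genes were compared, of which 686 (11.1%) were at least 2-fold higher in cNK cells and 202 (3.27%) at least 2-fold lower. The median log2 ratio over all genes compared was 0.12. Divided by the median ratio, 552 genes were higher and 273 lower, so that the share of higher genes among those called was 66.9% and not 77.3%. At like depth the balance turned: of 6306 genes, 345 (5.47%) were higher and 503 (7.98%) lower, with a median log2 ratio of -0.03. Of the 686 higher genes, 291 (42.4%) were at or below their level in B cells, 232 (33.8%) were at least 2-fold above it, and 156 were at least 2-fold above both B cells and macrophages. Most genes named below are given against trNK cells on both scales. Counts in the gene lists below stand beside these shares of all genes. The shares were 11.1% higher and 3.27% lower over all cells, and 5.47% and 7.98% at like depth.

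**Figure D1:**
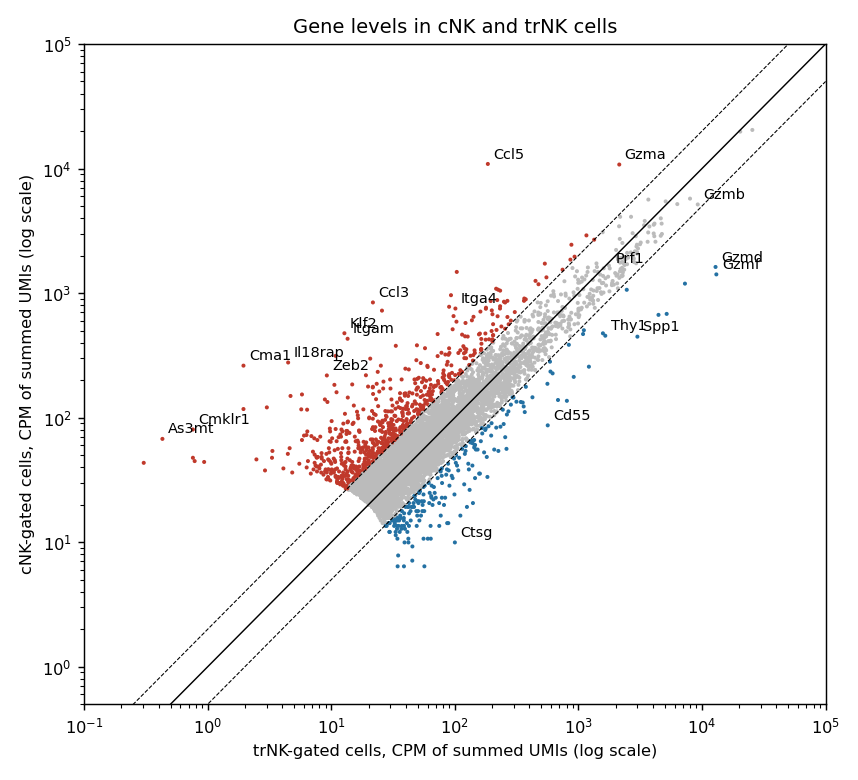
Level of each compared gene in trNK cells (x axis) and cNK cells (y axis), both as CPM of summed UMIs on log scales; the solid line marks equal levels and the dashed lines 2-fold ratios. The 686 higher genes are red and the 202 lower genes blue, and Ccl5, Cma1 and Il18rap lie far above the line while Gzmd, Gzmf and Ctsg lie below it.

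Genes of homing and tissue egress were mostly higher over all cells and moved both ways at like depth. Of 18 genes of this list compared, 12 were at least 2-fold higher and none lower, with a median log2 ratio of 1.5 against 0.12 over all genes. At like depth 8 of 20 were higher and 5 lower, with a median of 0.55 against -0.03. Klf2, the transcription factor that drives S1pr1 in lymphocytes, was at 476 CPM (440 to 513) in cNK and 12.8 CPM in trNK cells, a ratio of 37.3, and of 8.06 (5.76 to 11.6) at like depth. This level was near that of T cells (424 CPM) and B cells (434 CPM), which use S1pr1 to recirculate.

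The integrins of the list did not all move together. Itgam (CD11b) was at 429 CPM (396 to 465) in cNK and 13.5 CPM in trNK cells (ratio 31.7, and 5.67 at like depth). Itga4 (the CD49d chain) was at 751 against 101 CPM (7.44 and 9.38), Itgb7 at 194 against 26.4 (7.36 and 4.63) and Itgb2, the partner of Itgam, at 1064 against 224 (4.76 and 3.76). Cx3cr1, the fractalkine receptor of circulating NK cells, was at 183 CPM (162 to 207) against 10.6 (17.3 and 10.2), beside 564 CPM in macrophages, and S1pr4 at 76.7 against 27.6 (2.78 and 3.55). All 6 were at least 2-fold higher on both scales. Itgax (CD11c) turned, from a ratio of 2.86 (2.6 to 3.13) to 2.14-fold lower (1.81 to 2.54) at like depth, where it was at 385 against 824 CPM. Itgal, the CD11a chain, was called over all cells only (2.41, and 1.76 at like depth), and Itgb1 was within 2-fold (1.01 and 0.777).

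Other homing receptors were scarce or differed between the scales. S1pr1, the egress receptor of naive T and B cells, had 34 UMIs in 22 of the cNK cells (24.1 CPM), against 319 CPM in T and 225 CPM in B cells. Its ratio to trNK cells was 73.5 (37.8 to 152), and at like depth 2.66 with an interval from 0.531 to 25.7. Cxcr6, a receptor of tissue-resident cells and ILC1, had 2 UMIs in all cNK cells. The chemokine receptor Cxcr3 stood at 9.23 CPM in cNK and 8.74 CPM in trNK cells, and at like depth was 12-fold lower (3.65 to 62.4). Rgs1, a brake on chemokine receptor signalling found in resident lymphocytes, was at 760 against 1356 CPM, 1.78-fold lower, and 2.22-fold lower (1.96 to 2.52) at like depth. Ccr2, a receptor for monocyte chemokines, was at 544 against 654 CPM over all cells, and at like depth at 453 against 1140 CPM, 2.52-fold lower (2.16 to 2.93).

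Markers of NK maturation differed as well. Cma1, a chymase known as a transcript of mature mouse NK cells, was at 261 CPM (235 to 289) in cNK and 1.94 CPM in trNK cells, a ratio of 134 (105 to 174), and of 26.5 (12.7 to 66.6) at like depth. It was detected in 195 members (38.6%), with no more than 7 UMIs in any, and had 0 UMIs in ILC1-like, T and B cells. Spn (CD43), which NK cells gain late, was at 449 against 121 CPM (3.72, and 4.93 at like depth), and Ly6c2 at 961 against 92.9 CPM (10.3 and 13.0), but B cells held Ly6c2 at 1021 CPM. Thy1 was lower, at 454 against 1648 CPM (3.63-fold, 5.52-fold without the 50 members of 5000 UMIs or more, and 4.96-fold at like depth). Cd7, high in ILC1-like cells at 1956 CPM, was at 246 against 216 CPM over all cells and 7.67-fold lower at like depth (6.31 to 9.39).

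NK maturation is commonly staged by CD27, lost late, and CD11b, gained late. Cd27 was detected in 22 members with 25 UMIs, and Itgam in 292. Itgam without a Cd27 UMI was seen in 282 members, both in 10, Cd27 alone in 12 and neither in 201. At a median of 1998.5 UMIs in the 282 cells and 25 Cd27 UMIs in all members, the lack of a Cd27 UMI does not place a cell in a stage. Klrg1, an inhibitory receptor of the last stage, was detected together with Itgam in 193 members. Over the whole list, 5 of 9 genes were higher and 1 lower (median log2 ratio 1.9), and at like depth 5 of 10 were higher and 3 lower (0.84).

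The granule genes split by enzyme. Gzma, the tryptase granzyme A, was at 10764 CPM (10593 to 10936) in cNK and 2138 CPM in trNK cells, a ratio of 5.03, and of 11.3 (10.4 to 12.3) at like depth. Gzmc, Gzmd, Gzme, Gzmf and Gzmg, neighbours in the granzyme B cluster, were lower in cNK cells. Their levels were 1190, 1620, 680, 1412 and 668 CPM against 7273, 12862, 5173, 13056 and 4442 CPM in trNK cells, or 6.11-, 7.94-, 7.61-, 9.25- and 6.65-fold lower. At like depth they were 5.33-, 4.15-, 2.81-, 4.19- and 2.87-fold lower, and without the 50 members of 5000 UMIs or more 16.9-, 18.7-, 17.0-, 20.2- and 18.1-fold. Gzma and this block thus stood on opposite sides on both scales.

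The block was also found in B cells, which should lack it. B cells held Gzmc at 464, Gzmd at 918, Gzme at 287, Gzmf at 828 and Gzmg at 300 CPM. The 455 cNK cells under 5000 UMIs held 429, 688, 304, 646 and 246 CPM of these genes, at or near the B cell level for each. Free RNA was not measured and pairs of cells were not called, and their part in these levels was not tested. The 50 members with 5000 UMIs or more held 2758, 3539, 1455, 2988 and 1537 CPM. In cells thinned to 1000 UMIs, Gzmd was found in 44.5% of cNK, 78.4% of trNK and 48.5% of B cells, and Gzma in 89.5%, 46.4% and 16.7%. The thinning left out 11 cNK, 16 trNK and 12 B cells that were shallower, and before it the shares for Gzmd were 63.2%, 94.6% and 64.9% at median depths of 2035, 9044 and 1780 UMIs.

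Perforin (Prf1) and granzyme B, the main killing pair of NK cells, were within 2-fold over all cells. Prf1 was at 1577 CPM (1512 to 1644) in cNK and 1791 CPM in trNK cells, a ratio of 0.881, and at like depth at 2055 against 829 CPM, a ratio of 2.48 (2.19 to 2.80). Gzmb was at 5145 against 9234 CPM, 1.79-fold lower, and at like depth at 5233 against 4301, within 2-fold on both scales. B cells held Prf1 at 151 and Gzmb at 850 CPM, below both populations. Of 24 granule genes compared, 4 were higher and 6 lower (median log2 ratio -0.16), and at like depth 4 and 6 of 23 (0.01). Serpinb6b, a granzyme-inhibiting serpin, was higher on both scales (2.04 and 2.47), and Ctsg (cathepsin G) lower over all cells, at 9.94 against 99.9 CPM, while at like depth it rested on 3 and 5 UMIs (ratio 0.399, 0.062 to 2.05).

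**Figure D2:**
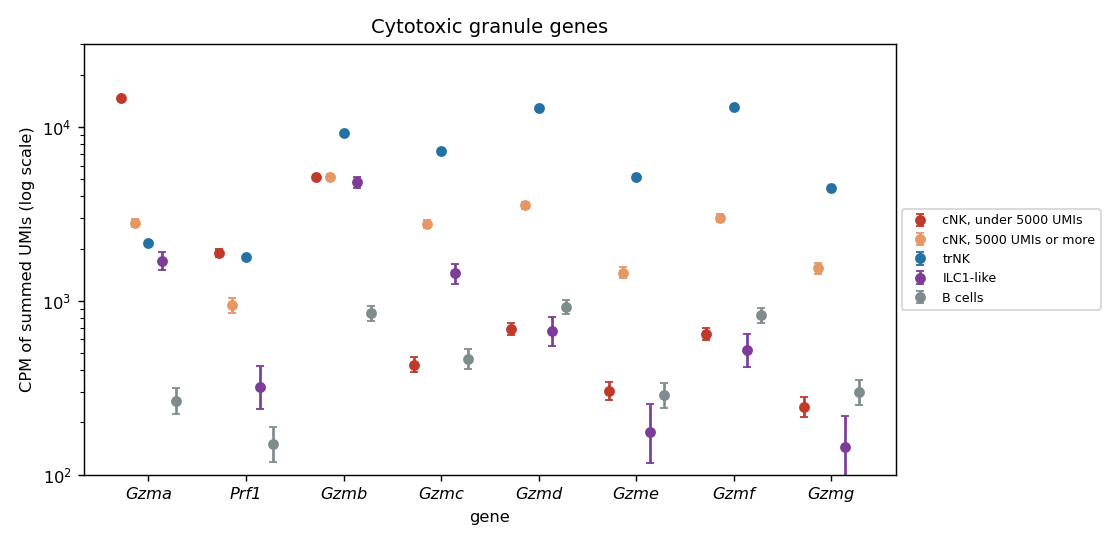
Levels of 8 granule genes (x axis) as CPM of summed UMIs on a log scale (y axis) in cNK cells under and above 5000 UMIs, in trNK, ILC1-like and B cells, with exact 95% counting intervals. Gzma is highest in cNK cells under 5000 UMIs, at 14630 CPM, while their Gzmc to Gzmg points lie beside those of B cells.

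The promoters of a cNK gene and of a granzyme from each side are shown, since Gzma and Gzmd stood on opposite sides and S1pr5 was in the gate. The windows are the 250 bases before the start of the RefSeq gene on GRCm38.p6, each on the minus strand: chr9:21248444-21248693 for S1pr5, chr13:113100982-113101231 for Gzma and chr14:56132594-56132843 for Gzmd. The UMIs were counted on GRCm39, and these coordinates belong to GRCm38.p6 only. They are written 5′ to 3′ in the direction of the gene, with capitals for the letters of a RUNX core, TGTGGTT, searched on both strands as TGTGGTT and AACCACA.
S1pr5: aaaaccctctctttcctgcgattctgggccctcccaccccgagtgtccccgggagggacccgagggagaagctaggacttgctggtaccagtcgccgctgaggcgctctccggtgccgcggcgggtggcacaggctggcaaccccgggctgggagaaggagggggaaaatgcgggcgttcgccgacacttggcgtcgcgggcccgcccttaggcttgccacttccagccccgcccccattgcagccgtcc
Gzma: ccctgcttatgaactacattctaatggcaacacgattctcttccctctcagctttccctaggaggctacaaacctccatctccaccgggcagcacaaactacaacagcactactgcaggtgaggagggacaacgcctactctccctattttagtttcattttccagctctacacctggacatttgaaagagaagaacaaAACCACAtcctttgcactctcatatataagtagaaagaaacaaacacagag
Gzmd: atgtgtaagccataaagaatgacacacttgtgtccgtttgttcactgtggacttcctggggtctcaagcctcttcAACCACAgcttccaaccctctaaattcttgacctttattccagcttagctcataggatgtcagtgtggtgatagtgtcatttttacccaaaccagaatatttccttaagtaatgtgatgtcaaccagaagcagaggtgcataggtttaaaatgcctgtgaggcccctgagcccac

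The Gzma window held the RUNX letters from 51 to 45 bases before the start and the Gzmd window from 175 to 169 bases before it. The S1pr5 window held no match. Of 32851 such windows in the mouse genome 1444 (4.40%) held the RUNX letters. The shares were 3.48% over the genes compared, 5.71% (41 of 718 windows) over the genes higher in cNK cells and 7.14% (13 of 182) over those lower, with 529 of the 686 higher and 146 of the 202 lower genes matched. A T-box core, TCACACC or GGTGTGA, was in 3.33% of all windows, 2.72% of those compared, 3.06% of the higher and 4.40% of the lower. A match describes letters and not a bound site.

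The chemokine Ccl5 was about as abundant as granzyme A. Ccl5 was at 10879 CPM (10708 to 11053) in cNK and 185 CPM in trNK cells, a ratio of 58.9 (57.3 to 60.6). Its level in B cells was 201 CPM, so the trNK level was not above that of cells that should lack it. At like depth it was at 16878 against 3283 CPM, a ratio of 5.14 (4.86 to 5.45), since the 224 shallow trNK cells held far more Ccl5 than the rest. Thinned to 1000 UMIs per cell, 91.9% of cNK, 13.3% of trNK and 9.01% of B cells held a Ccl5 UMI, against 94.3%, 32.9% and 11.8% before thinning.

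Among the other secreted products, Ccl3 was at 840 CPM (793 to 890) in cNK and 21.7 CPM in trNK cells, a ratio of 38.8, and of 8.35 at like depth. Ccl4, a chemokine close in sequence to Ccl3, was at 1478 against 104 CPM (14.3 and 3.92), and Ifng, the interferon that NK cells use to activate macrophages and remodel decidual arteries, at 177 against 19.8 CPM (8.95 and 3.92). Macrophages of the same pool held Ccl3 at 1455 and Ccl4 at 2746 CPM, above the cNK levels. Xcl1, which draws dendritic cells, turned: its ratio was 2.31 over all cells and at like depth it was 4.10-fold lower (3.50 to 4.82). In the 5 clusters of members described below, Xcl1 was at 1072, 1773, 380, 235 and 232 CPM. Of its 455 UMIs in cluster 1, 251 came from 1 cell. Ltb also turned, from 3.35-fold higher to 7.86-fold lower. It was at 137 CPM in cluster 2 and at 16.5, 8.08, 42.3 and 3.32 CPM in clusters 1, 3, 4 and 5. Spp1 (osteopontin) was lower on both scales, at 446 against 2998 CPM (6.72-fold, 11.7-fold without the 50 deep members and 4.58-fold at like depth), and B cells held it at 187 CPM. In all, 6 of 11 genes were higher and 1 lower (median log2 ratio 1.20), and at like depth 4 of 12 higher and 6 lower (-1.11).

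Receptor chains for the cytokines that induce interferon gamma differed in direction. Il18rap, the signalling partner of the IL-18 receptor, was at 277 CPM (250 to 306) in cNK, 4.47 CPM in trNK and 6.03 CPM in B cells, a ratio to trNK of 61.9 (51.7 to 74.4), and of 7.16 (4.75 to 11.3) at like depth. Il12rb2, the inducible chain of the IL-12 receptor, was at 175 against 21.6 CPM (8.08 and 4.79). Its partner chain Il12rb1 was at 12.1 CPM (7.03 to 19.3) against 41.2, 3.42-fold lower (2.13 to 5.88), and 2.79-fold lower (1.03 to 8.26) at like depth, on 7 and 13 UMIs. Il21r, the receptor of the cytokine the study added to trNK cultures, was at 36.2 CPM (26.9 to 47.6) in cNK, 20.2 CPM in trNK and 129 CPM in B cells. At like depth Il21r was 3.15-fold lower in cNK than in trNK cells (1.83 to 5.57). In the paper, Il21r was high in early trNK subgroups and lower in late ones and in cNK cells, by RNA and by flow cytometry. The trNK gate used here does not separate such subgroups. In the cytokine receptor list, 5 of 12 genes were higher and 1 lower (median log2 ratio 0.71), against 11.1% and 3.27% of all genes compared. At like depth 2 of 12 were higher and 5 lower (-0.15), against 5.47% and 7.98% of all genes.

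The Ly49 receptors, which bind MHC class I, were higher over all cells but not at like depth. Of 8 compared, 6 were higher and none lower (median log2 ratio 1.61), while at like depth none of 9 was called either way (0.10). Klra8 (Ly49H) was at 1336 CPM (1277 to 1398) against 550, a ratio of 2.43, and at like depth at 1622 against 2041 CPM, a ratio of 0.794. Klra4 (Ly49D) went from a ratio of 3.38 to 0.933 and Klra13-ps from 4.2 to 1.07. Reads of these near-identical genes can be split between copies, so single members are uncertain.

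Of the other NK receptors, 8 of 18 were higher and 2 lower (median log2 ratio 0.81), and 5 of 17 were higher and 3 lower at like depth (0.37). Klrb1a, a relative of NK1.1, was at 219 CPM (195 to 244) in cNK and 19.0 CPM in trNK cells (11.5, and 6.66 at like depth). The NKG2 chains Klrc1 and Klrc2, which pair with CD94 to sense Qa-1, were at 261 against 25.1 CPM (10.4 and 2.49) and at 297 against 20.6 CPM (14.4 and 2.89). Klrg1 was at 467 against 587 CPM, a ratio of 0.795, and 2.09-fold higher (1.68 to 2.63) at like depth. Cd96, an inhibitory receptor for nectins, was lower on both scales (2.1- and 2.35-fold).

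Of the adaptors and kinases that carry the signals of these receptors, Fcer1g and Tyrobp differed little, while 5 of 13 were higher over all cells. Fcer1g, at 2859 CPM, and Tyrobp, at 2220 CPM, were detected in 501 and 490 members, with ratios to trNK cells of 0.983 and 1.1, and of 1.1 and 1.01 at like depth. The kinase Syk was higher on both scales (6.38 and 3.12), as was the CD3 zeta chain Cd247 (2.37 and 2.09), while B cells held Syk at 279 CPM, above the 104 CPM of cNK cells. Syk and Cd247 were the called genes among 13 at like depth. Over all cells Hcst, Lat and Lck were also at least 2-fold higher, and none was lower.

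Of the transcription factors, Zeb2, Tbx21 and Prdm1 were higher in cNK cells on both scales. Zeb2, which acts late in maturation together with T-bet, was at 218 CPM (194 to 244) in cNK and 9.19 CPM in trNK cells (23.7, and 7.66 at like depth), beside 108 CPM in B cells and 376 CPM in macrophages. Tbx21 (T-bet) was at 289 CPM (262 to 318) against 48.8 (5.92 and 2.66), and at 10.1 CPM in B cells. Prdm1 (Blimp-1) was at 88.0 against 40.5 CPM (2.17 and 2.14). Irf8, needed for NK cell responses to virus, was at 1360 against 940 CPM (1.45, and 2.19 at like depth). Tcf7 (TCF-1), a factor of early NK and memory T cells, had a ratio of 1.99 over all cells and was 4.64-fold lower at like depth (2.86 to 7.78). Tox turned, from at least 2-fold higher over all cells to at least 2-fold lower at like depth. In the list, 11 of 24 were higher and 1 lower (median log2 ratio 0.96), and at like depth 7 and 2 of 26 (0.27).

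Genes of activated and late-stage trNK cells were lower in cNK cells. This list was written with earlier results of these data known, so its direction is a description only. Of 10 compared, 8 were lower and 1 higher (median log2 ratio -1.72), and at like depth 6 of 8 were lower and none higher (-1.49). Tnfrsf9 (4-1BB) was at 475 CPM against 1577 (3.32-fold lower, and 2.43-fold at like depth) and Cd55, a complement inhibitor, at 86.6 against 564 CPM (6.51- and 3.22-fold lower), with B cells at 346 CPM. Scin (scinderin) was 3.28-fold lower, and 3.43-fold at like depth. Without the 50 deep members 8 of 9 genes were lower (-3.54), Cd55 11.6-fold, Scin 13.6-fold and Tnfrsf9 5.48-fold. In that setting 571 of all 6178 genes compared were lower, with a median of 0.15. The single higher gene, Tnfsf4 (OX40 ligand), owed 119 of its 146 UMIs to 1 cell, and its log2 ratio was negative once the deep members were left out.

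Other lists differed between the scales. Cell division genes showed 0 of 19 called over all cells (median log2 ratio -0.22), and 5 of 14 lower at like depth, among them Mki67 (5.05-fold) and Top2a (3.41-fold). Without the 50 members of 5000 UMIs or more, 11 of 18 were lower than in trNK cells (-1.44). Over all genes, 571 of 6178 were lower in that setting, with a median of 0.15. The summed level of the cell division list was 1040 CPM in the other 455 against 3433 CPM in those 50. Immediate early and heat shock genes, which cell handling induces, were higher in 10 of 14 (1.59), and in 1 of 14 at like depth (0.25), where the ratio of Fos went from 8.64 to 1.08. Interferon-stimulated genes were higher in 7 of 11 (1.92), and in 10 of 13 without the 50 deep members (2.36), where 1033 of all 6178 genes were higher. At like depth none of 16 was higher and 4 were lower (-0.24). Cxcl10 turned, from at least 2-fold higher over all cells to 11.8-fold lower (5.36 to 30.7), on 7 UMIs in cNK and 55 in trNK cells. The summed level of the interferon list was 746 CPM in cNK, 258 CPM in trNK, 1883 CPM in T and 2092 CPM in B cells. Survival and apoptosis genes were called in 0 of 8, and at like depth 2 of 10 were higher.

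**Figure D3:**
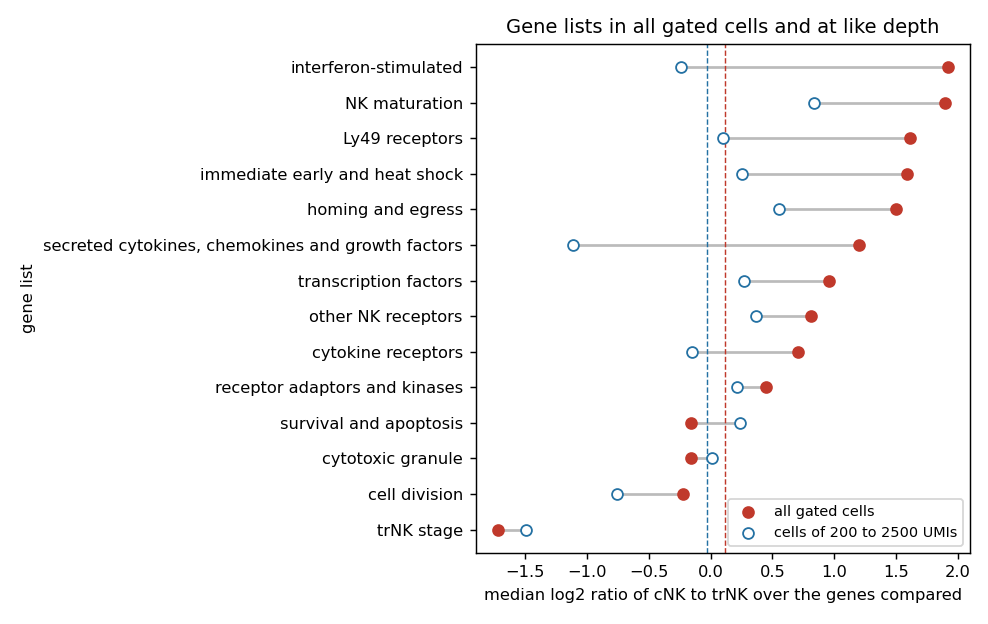
Median log2 ratio of cNK to trNK cells (x axis) over the compared genes of each list (y axis), for all gated cells (filled) and for cells of 200 to 2500 UMIs (open); dashed lines mark the medians over all genes, 0.12 and -0.03. Homing, maturation and trNK stage lists keep their side, while the Ly49, immediate early and interferon lists move to near 0.

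Outside the lists, the largest ratios to trNK cells belonged to genes that were themselves weak. As3mt, an arsenic methyltransferase, was at 67.4 CPM (54.5 to 82.4) against 0.429, a ratio of 157 (93.1 to 281), with 26.1 CPM in B cells. At like depth its ratio was 37.9 (6.54 to 1525), on 57 UMIs in cNK and 1 in trNK cells. Kcnj8, a potassium channel, was at 43.3 against 0.303 CPM (143, and 34 with an interval of 5.83 to 1367 at like depth), and Cmklr1, the chemerin receptor known on circulating NK cells, at 80.2 CPM (66.1 to 96.4) against 0.757 (106, and 26 with an interval of 6.95 to 218 at like depth) and at 2.01 CPM in B cells, while macrophages held it at 87.3 CPM. Cmklr1 was detected in 95 members (18.8%), with no more than 3 UMIs in any. Klf3 (60.2) and Hes1 (62.8) were also far above trNK cells, with smaller ratios of 24.6 (8.21 to 121) and 5.55 (1.69 to 28.7) at like depth, and B cells held them at 135 and 52.2 CPM, beside 117 and 47.5 CPM in cNK cells. The ratios of Pxylp1 and Gpx8 were 57.1 and 47.1. At like depth Pxylp1 stood at 6.66 (2.41 to 25.6) and Gpx8 had 42 UMIs in cNK and 0 in trNK cells. At the other end, Fam178b, Fcrl6 and Dsc2 were 8.86-, 6.80- and 6.53-fold lower, at 6.39, 20.6 and 19.2 CPM in cNK cells. Of their UMIs in cNK cells, 8 of 9 for Fam178b, 24 of 29 for Fcrl6 and 14 of 27 for Dsc2 lay in the 50 deep members, without which they were 53.7-, 26.5- and 9.13-fold lower. At like depth Dsc2 was 2.87-fold lower (1.32 to 6.59), while Fam178b and Fcrl6 had 1 UMI each in cNK cells and had a mean under the limit of 20 CPM.

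Compared with ILC1-like cells, cNK cells were higher in granzyme A, perforin and most Ly49 receptors. Of 6376 genes, 508 (7.97%) were higher in cNK than in ILC1-like cells and 560 (8.78%) lower, with a median log2 ratio of -0.07. At 200 to 2500 UMIs these numbers were 713 higher and 1260 lower. Only 28 ILC1-like cells with 53633 UMIs stood behind that comparison, so that a call of a weak gene could rest on very few UMIs. Gzma was 6.32-fold (5.6 to 7.15), Prf1 4.90-fold and Irf8 4.31-fold higher in cNK cells, and Ccl5 3.13-fold, while Gzmb (1.07) and Ccl4 (1.17) were within 2-fold. Klf2 (12.6-fold), Itgam (6.81), Zeb2 (6.91) and Klrg1 (6.17) were also higher. So were Gzmd (2.42-fold), Gzme (3.85), Gzmf (2.70) and Gzmg (4.60), at 669, 177, 524 and 145 CPM in ILC1-like cells. The cNK cells under 5000 UMIs held these 4 genes at 688, 304, 646 and 246 CPM. The Ly49 list had 7 of 8 genes higher and none lower in cNK cells.

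Other genes were lower in cNK than in ILC1-like cells, among them receptors and secreted products. Cxcr3 was 17.1-fold lower in cNK cells (8.42 to 36.4), Cd226 9.43-fold, Cd7 7.94-fold, Ltb 7.51-fold, Xcl1 2.76-fold and Klrc1 2.25-fold. Il21r was 4.01-fold lower (2.34 to 6.68). Genes of the ILC1 and ILC list, of which Cxcr6 and Il7r set the ILC1-like gate, summed to 119 CPM in cNK and 1836 CPM in ILC1-like cells. Only 52 cells stand behind the ILC1-like levels.

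T cells, which could enter the gate where Cd3e was missed, were compared in the same way. Of 6534 genes, 460 (7.04%) were higher in cNK than in T cells and 562 (8.6%) lower. Gzma was 20.5-fold, Itgam 27.5-fold, Klra8 13.9-fold, Irf8 7.61-fold, Ccl5 6.38-fold and Prf1 5.98-fold higher in cNK cells. Tcf7 and Lef1, factors of naive and memory T cells, were 13.4- and 13.0-fold lower, and S1pr1 13.2-fold lower. Klf2 (1.12) was within 2-fold. Of the other NK receptors 14 of 19 were higher and 3 lower, whereas 9 of 15 interferon-stimulated genes were lower and 1 higher.

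**Figure D4:**
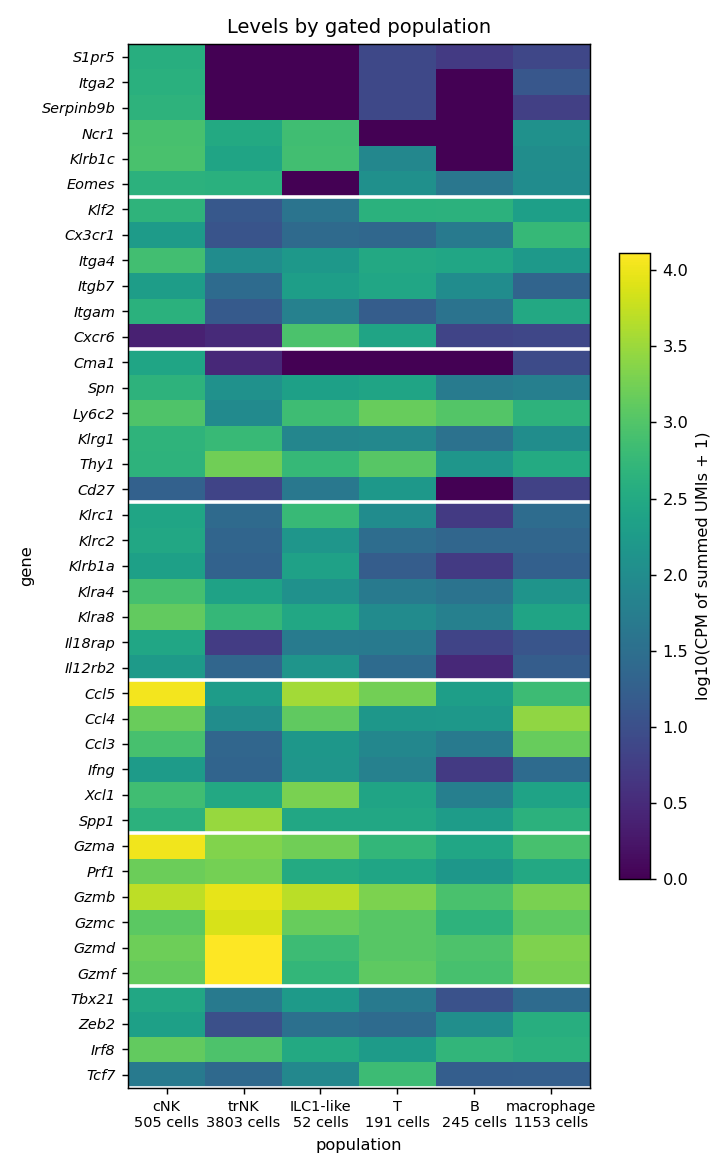
Level of selected genes (rows) in the 6 gated populations (columns), as log10 of the CPM of summed UMIs plus 1; the top block holds gate genes and is fixed by the rule. Ccl5 and Gzma are brightest in the 505 cNK cells and Gzmd in the 3803 trNK cells. Cxcr6 helped choose the 52 ILC1-like cells, so its high level there is fixed by their gate.

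The members varied with depth. Ccl5 took a median of 1.27% of the UMIs of a member (quartiles 0.532 and 2.16, highest 6.86) and was absent from 29 members. Gzma took 1.48% (0.823 and 2.00, highest 3.82) and was absent from 38. Gzmc to Gzmg together took 0.174% (0.0900 and 0.312), with a highest value of 6.28%. In the 50 members of 5000 UMIs or more, the median of Ccl5 was 0.0450%, against 1.68% in the 116 members under 1500 UMIs. These 50 cells (9.90% of members) held 32.7% of all cNK UMIs. Their Ccl5 was at 1655 CPM and their Klf2 at 106 CPM, against 15360 and 655 CPM in the other 455.

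Clustering of the members, without the gate genes, gave 5 clusters, which are described by number. Cluster 1 (53 cells, median 7691 UMIs) held 36 of the 50 deep members. Its leading genes included the mitotic genes Ccna2, Nusap1, Spc25, Nuf2 and Hmmr, and Tnfsf4 and Ccl1, of which 1 cell each gave 119 of 142 and 93 of 127 UMIs. Mki67 stood at 240 and Top2a at 443 CPM, and Ccl5 at 1762, Gzma at 3480, Gzmd at 3739 and S1pr5 at 91.9 CPM. These cells passed the gate on S1pr5, Itga2 and Serpinb9b, while trNK cells held Gzma at 2138 and Gzmd at 12862 CPM and clusters 2 to 5 together held Gzmd at 706 CPM. The identity of these cells was not tested.

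Cluster 2 (50 cells, median 3121 UMIs) was led by Tcf7 (217 CPM), Ltb (137), Emb (251), Jaml, Cd7 (918) and Ccr2 (1665), with Xcl1 at 1773 CPM. In it Klf2 (96.9 CPM), Cma1 (39.9), Cx3cr1 (11.4), Zeb2 (39.9) and S1pr5 (91.2) were low, while Itga2 stood at 524 CPM. Clusters are chosen on the same genes, so these levels are a description only.

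Clusters 3, 4 and 5, with 118, 124 and 160 cells at medians of 2034, 1930 and 1716 UMIs, held the pattern described for cNK cells as a whole. Ccl5 was at 17716, 17882 and 16346 CPM, Gzma at 17199, 13953 and 17390 CPM, and Cma1 at 453, 431 and 411 CPM. They parted by Ccl4, at 3252, 2263 and 1462 CPM, and by the stress genes Hspa1b (3509 CPM), Jun (2167), Fos (2113) and Egr1 (1432) in cluster 4, where Klf2 was at 1158 CPM. This parting depends on the resolution, since at 0.4 a single cluster held 401 of the members. Cluster 5 had the highest Prf1 (2566 CPM) and Gzmb (6976 CPM), and its leading gene Hba-a1 had 319 of 336 UMIs in 1 cell.

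**Figure D5:**
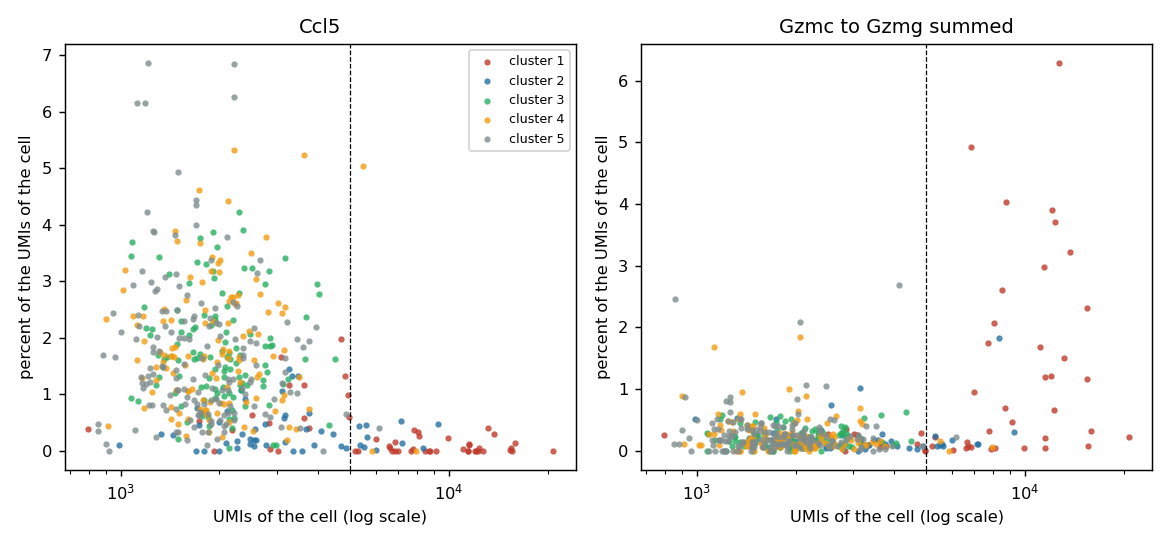
Percent of the UMIs of each cNK cell taken by Ccl5 (left y axis) and by Gzmc to Gzmg summed (right y axis) against the UMIs of the cell on a log scale, coloured by cluster, with a dashed line at 5000 UMIs. Ccl5 reaches 6.86% in cells under 5000 UMIs and has a median of 0.0450% above it, where the granzyme block reaches 6.28%.

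Marker lists of other cell types were low in sum. The B list summed to 152 CPM in cNK cells against 12866 CPM in B cells, and the macrophage list to 213 CPM against 16966 CPM in macrophages. Part of these contrasts was fixed by the gates. Cd79a and Cd79b chose the B cells, while C1qa, C1qb and C1qc chose the macrophages and were limited in cNK cells. The T list summed to 753 CPM, close to the 727 CPM of trNK cells and below the 5046 CPM of T cells. Of the 753 CPM, Trbc1 gave 396, Trbc2 206 and Trdc 116 CPM. NK cells are known to transcribe these loci unrearranged, but rearrangement was not read here. Cd4 and Cd8b1 were at 0, and Cd3g was at 22 CPM against 717 CPM in T cells, whose gate used Cd3d and Cd3g. Stromal genes summed to 406 CPM and erythroid genes to 566 CPM, but 1 cell each gave 360 and 703 UMIs of those lists. Neutrophil, basophil and mast cell, and platelet lists summed to 4.3, 6.4 and 6.4 CPM. At least 2 UMIs of a list were found in 253 members for the T list, 64 for macrophages, 40 for B, 9 for erythroid and 7 for stromal genes, and in 299 members (59.2%) for any of them, of which the T list took most.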

How the data were processed

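The authors sorted the cells, captured them on BD Rhapsody, counted with its whole transcriptome pipeline on GRCm39, and deposited raw UMI counts per cell and gene. The authors' limits on UMIs per cell (more than 200, fewer than 2500) were used as the scale of like depth. On these counts and gates they kept 4338 cells, of which 224 were trNK cells, fewer of each than the paper reports. The cells of like depth are therefore not the authors' set of cells. Both files were joined by cell number, with 0 value columns unused. The bulk libraries and other files of the series were not used here.

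Populations were gated on raw UMIs: trNK cells had Itga1 and Eomes and no S1pr5, Itga2 or Serpinb9b UMI, ILC1-like cells Itga1 without Eomes and at least 2 UMIs of Cxcr6 and Il7r, T cells Cd3e with Cd3d or Cd3g and no Ncr1, and B cells at least 2 UMIs of Cd79a and Cd79b with no Ncr1, Klrb1c or Cd3e. UMIs were summed, scaled to CPM and compared as ratios, with exact Poisson, binomial and conditional intervals (scipy 1.17.1, numpy 2.4.6, pandas 2.3.3, Python 3.11.15). The ratio and its interval were tried on simulated Poisson counts, the model that the interval assumes. The simulation held no clustering of UMIs within single cells, so it cannot show how the interval behaves where 1 cell gives most UMIs. Members were clustered with scanpy 1.11.5 on 2000 variable genes without the gate genes, 20 components, 15 neighbours and a resolution of 0.6. No doublet caller was run. Promoters were read from RefSeq.

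The members and gene lists were chosen with earlier results of these data known. Named genes were the 10 highest and 10 lowest ratios of cNK to trNK, with ribosomal, mitochondrial and Gm or Rik genes left out, up to 4 at each end of each list, the leading genes of clusters, and members a result turned on. Not all of these are printed. Of 312 listed genes, 18 were not analysed here, and some items are not reported here. The alternatives tried are given in the closing section.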

Additional observations from a re-analysis of the deposited data

How the results depend on the processing

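No paired analysis was possible because the cells are 1 pooled sample and no result comes from a test. The percent of cells gated as cNK (3.86%) became 8.05% with cells of 200 to 2500 UMIs only, 3.34% without a mitochondrial limit and 4.31% with a limit of 5%. It was 2.24% (293 cells) at a sum of 3 UMIs and 7.52% (984 cells) at a sum of 1. Without S1pr5, Itga2 or Serpinb9b in the gate it was 2.64%, 2.41% (315 cells) and 2.87%, and with Itga1 not used 5.34%. It was 1.57% (206 cells) without the members holding at least 2 UMIs of a T, B, macrophage, stromal or erythroid list, most of them through the T list. Against trNK cells, where 686 genes were higher and 202 lower, these numbers were 345 and 503 with cells of 200 to 2500 UMIs, 257 and 19 with Itga1 not used, 1054 and 602 without those members, 4672 and 954 without a filter on low values, and 371 and 104 at 50 CPM. Lower genes numbered 116 at a sum of 1, 319 without Serpinb9b, 372 as a mean over cells and 446 in cells thinned to 1000 UMIs. The share of higher genes among those called was 40.7% at 200 to 2500 UMIs, 93.1% with Itga1 not used, 63.6% without list-positive members, 66.3% as a mean over cells and 64.9% thinned. These alternatives were chosen after seeing the data: without the members of 5000 UMIs or more (3.48% of cells) 1033 genes were higher and 571 lower (64.4%), and without cluster 1 the numbers were 1006 and 522 (65.8%). Of the 686 and 202 genes, 671 and 199 kept their call without the deep members. The share of higher genes at or below the B cell level (42.4%) was 19.7% at 200 to 2500 UMIs, 47.4% at a sum of 1, 46.3% with Itga1 not used, 32.1% without list-positive members, 35.1% without deep members and 34.8% without cluster 1. Against ILC1-like cells, 713 genes were higher and 1260 lower at 200 to 2500 UMIs, and 667 and 1248 when thinned, and 918 were higher and 1758 lower without a filter, and 176 and 215 at 50 CPM. Against T cells, 873 were lower when thinned, and the numbers were 1104 and 2051 without a filter and 218 and 245 at 50 CPM. Clusters numbered 3 at a resolution of 0.4, of 53, 51 and 401 cells, where cluster 1 held the same 53 cells. They numbered 10 at 1.0, where 39 and 14 of those 53 cells fell in separate clusters.

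Over 19 settings, 77 named genes gave 1463 log2 ratios to trNK cells. Of these, 1383 kept their side of the 2-fold limit or moved only slightly, 64 crossed it and 16 reversed. Only genes called over all cells could count as reversed. Tcf7, Cd7, Il21r and Cxcr3, within 2-fold over all cells and lower at like depth, were therefore counted as crossing the limit. At 200 to 2500 UMIs Ltb reversed to -2.97, Xcl1 to -2.04, Itgax to -1.1, Tnfsf4 to -0.59, Klra8 to -0.33, Klra4 to -0.1 and Isg15 to -0.08. Cxcl10 (-3.56) and Tox were not among the 77 genes but also turned there, from at least 2-fold higher to at least 2-fold lower. Xcl1 also reversed to -0.42 without list-positive members and -0.01 thinned, and Ltb to -0.55 thinned. Tnfsf4 also reversed to -0.46 at a sum of 3, -1.97 without Itga2, -1.88 without list-positive members, -0.36 as a mean over cells, -2.71 without deep members and -2.77 without cluster 1, since 1 cell gave most of its UMIs. The cause of the other shifts was not tested. Depth limits the weak genes: a trNK level at 200 to 2500 UMIs rests on 402735 UMIs, and an ILC1-like level on 53633 UMIs in 28 cells. Over all depths an ILC1-like level rests on 158511 UMIs.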

Other observations

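Cells outside the intended sort were present in the same table. Among the cells under the mitochondrial limit, 1153 (8.81%) held at least 10 UMIs of C1qa, C1qb and C1qc and 245 (1.87%) passed the B cell gate, although the sort was for NK1.1+NKp46+ cells. Without the Itga1 limit the cNK gate would hold 5.34% of cells, so that cells with UMIs of both Itga1 and the cNK genes were present. Pairs of cells were not called here.

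The 224 trNK cells of 200 to 2500 UMIs differed from the trNK cells as a whole: Ccl5 stood at 3283 against 185 CPM, Cd7 at 1547 against 216 CPM and Gzmd at 2895 against 12862 CPM. Depth, cell state and stage (virgin or gd8.5) cannot be told apart within the trNK gate.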
